A study of Homo sapiens with 9 samples.

Results

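The 50 genes described here are the hypoxia response and glycolysis genes of residual PC3 xenografts, chosen by their names as known members of these pathways, and all 50 were among the 16008 genes listed in both count tables. They comprise 22 hypoxia targets that are not glycolytic enzymes, 7 genes of glucose and lactate transport and flux control, 17 core glycolytic enzymes, and 4 genes of the hypoxia-inducible factor (HIF) machinery, namely HIF1A, EPAS1, ARNT and VHL. The set and its division into targets and enzymes were selected on the contrast of treated and vehicle tumors, with earlier results of these data in view. Differences between treated and PBS libraries are therefore given as a description, without a test of the set, and are not independent evidence of a direction.

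RNA-Seq was performed on subcutaneous xenografts of PC3, a human prostate cancer cell line that does not depend on the androgen receptor, grown in male NSG mice, which lack mature lymphocytes. Mice received PBS as vehicle or an antibody-drug conjugate at 5 mg/kg, and each of the 3 groups had 3 libraries. According to the series record the mice were 11 weeks old and treatment was weekly for 5 cycles by retro-orbital injection, starting at tumors of about 90 mm3, whereas the study's methods differ in the age, starting volume and number of cycles. P-DXd joins the HER3 antibody patritumab, and T-DXd the HER2 antibody trastuzumab, to the topoisomerase I inhibitor deruxtecan. The title and the treatment field of each treated sample name different conjugates. The column names of the counts follow the titles. Groups were therefore named after the titles, as P-DXd-titled or T-DXd-titled, and which conjugate each group received cannot be told apart. The comparison of all 6 treated libraries with the 3 PBS libraries does not depend on this. Libraries of a group are labelled as separate tumors by animal codes, which do not show whether any shared a cage or an extraction.

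In cells with enough oxygen, EGLN1 (PHD2) hydroxylates HIF1A and EPAS1 (HIF-2α) and the VHL ubiquitin ligase then marks them for degradation, whereas in hypoxia these subunits accumulate, pair with ARNT and bind the hypoxia response element, whose core letters are ACGTG or GCGTG. Their targets include carbonic anhydrase CA9, the angiogenic factor VEGFA, the glucose transporters and most enzymes that convert glucose to lactate. HIF protein is controlled mainly by degradation, so mRNA levels of HIF1A and EPAS1 do not measure its activity.

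Promoters are shown first because they hold the letters that HIF is known to read. RefSeq promoter windows on GRCh38.p14, the 250 bases before the first listed transcription start, were matched for 43 of the 50 members. ANGPTL4 was among them, while VEGFA, NDRG1, BNIP3L, LOXL2, HILPDA, SLC2A3 and VHL were not in the table used here. Below are CA9, LDHA, PGK1 and ALDOC, which were lower in treated tumors and hold ACGTG, TPI1, which was lower and does not hold it, and EGLN1, which holds it and whose treated and PBS libraries overlapped. Capitals mark ACGTG on either strand, which reads CACGT on the opposite strand, and CACGTG holds both. The windows lie at chr9:35673678-35673927 (+) for CA9, chr11:18394313-18394562 (+) for LDHA, chrX:78103998-78104247 (+) for PGK1, chr17:28576896-28577145 (-) for ALDOC, chr12:6867281-6867530 (+) for TPI1 and chr1:231422288-231422537 (-) for EGLN1, and each is written 5′ to 3′ on the strand of its gene.
CA9: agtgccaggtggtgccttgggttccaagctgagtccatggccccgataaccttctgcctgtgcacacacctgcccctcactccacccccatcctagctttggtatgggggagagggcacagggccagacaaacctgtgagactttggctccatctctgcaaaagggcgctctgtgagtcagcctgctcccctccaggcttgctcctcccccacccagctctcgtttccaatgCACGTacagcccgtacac
LDHA: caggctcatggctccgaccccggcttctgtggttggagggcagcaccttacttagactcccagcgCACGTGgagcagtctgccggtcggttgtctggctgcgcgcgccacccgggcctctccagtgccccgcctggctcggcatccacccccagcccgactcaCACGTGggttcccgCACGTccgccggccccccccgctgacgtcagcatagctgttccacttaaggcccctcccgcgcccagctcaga
PGK1: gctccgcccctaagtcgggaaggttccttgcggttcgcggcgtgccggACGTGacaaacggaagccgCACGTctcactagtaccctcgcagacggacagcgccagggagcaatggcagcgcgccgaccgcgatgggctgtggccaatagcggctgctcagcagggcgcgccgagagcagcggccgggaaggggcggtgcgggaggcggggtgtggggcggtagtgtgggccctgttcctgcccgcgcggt
ALDOC: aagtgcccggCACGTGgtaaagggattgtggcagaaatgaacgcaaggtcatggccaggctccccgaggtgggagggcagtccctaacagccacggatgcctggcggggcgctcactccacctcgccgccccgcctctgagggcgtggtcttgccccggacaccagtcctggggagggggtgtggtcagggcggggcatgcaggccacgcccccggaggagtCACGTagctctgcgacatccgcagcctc
TPI1: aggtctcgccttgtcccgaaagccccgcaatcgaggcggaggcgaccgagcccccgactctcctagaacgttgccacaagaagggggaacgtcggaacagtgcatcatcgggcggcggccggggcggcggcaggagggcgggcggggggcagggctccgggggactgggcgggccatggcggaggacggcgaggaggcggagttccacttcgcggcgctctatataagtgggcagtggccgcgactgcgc
EGLN1: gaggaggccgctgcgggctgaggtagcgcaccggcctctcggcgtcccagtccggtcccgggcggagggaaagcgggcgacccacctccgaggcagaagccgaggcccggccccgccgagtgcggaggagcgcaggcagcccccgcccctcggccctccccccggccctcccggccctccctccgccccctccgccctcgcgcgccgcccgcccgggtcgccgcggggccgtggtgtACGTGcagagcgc

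The letters ACGTG, searched on both strands, were in 19 of the 43 member windows (44.2%), 22.2% of the 12473 windows of genes in both count tables and 18.7% of all 27305 windows. By class they were in 10 of 17 hypoxia target windows, 8 of 17 glycolytic enzyme windows, 1 of 6 windows of transport and flux control genes and 0 of 3 windows of HIF1A, EPAS1 and ARNT. Of the members called lower in treated tumors, 14 of 25 windows held ACGTG and the others, such as those of TPI1, PDK1 and PFKFB3, did not, and of the members not called 5 of 18 held it. GCGTG was in 19 of 43 member windows and 42.7% of windows of listed genes, a difference of less than 2 percentage points. CACGTG, which contains ACGTG and is also the E-box of MYC and other factors, was in 5 of 43 member windows (11.6%) and 8.35% of those of listed genes. Member windows were also richer in G and C, with a median of 68.8% against 64.0% for listed genes. A match shows only that the letters are in the window, and its occupancy was not measured here.

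The libraries held 54481702 to 125538606 counts, and every PBS library (90761763 or more) was deeper than every treated library (83721486 or fewer). PBS replicate 1 stood apart from the other PBS libraries, with a chi-square per gene of 321 and 396 against them, compared with 38.03 between PBS replicates 2 and 3. P-DXd-titled replicate 2 carried skeletal muscle transcripts, with a summed level over 12 of 13 muscle markers of 4280 CPM (normalised counts scaled to a common library size), against 116 to 305 in the other treated libraries and 20.5 to 68.2 in PBS. The epithelial keratins and adhesion genes fixed as PC3 markers (5 of 5 listed) were present in all libraries and summed to 1670 to 2340 CPM in PBS and 3130 to 3660 CPM in treated tumors. Fibroblast markers (9 of 9 listed) summed to 1060 to 2060 CPM in PBS and 1220 to 2220 CPM in treated tumors, and macrophage markers (6 of 8 listed) to 4.68 to 6.8 and 12.9 to 22.9 CPM. The methods do not state whether mouse reads were removed, and the part of host transcripts in the differences below was not tested. In bulk tissue, fewer cells of a type and less RNA per cell cannot be told apart.

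Levels are CPM scaled with trimmed mean of M-values (TMM) factors, and a gene was called at an edgeR quasi-likelihood adjusted p of at most 0.05 and a fold change of at least 1.5. By this rule 30 of the 50 members were lower and 0 were higher in the 6 treated libraries than in the 3 PBS libraries, where 17.1% of all 15070 genes tested were called lower and 15.2% higher. In P-DXd-titled tumors 28 members were called lower (13.8% of all genes, with 11.2% called higher), and in T-DXd-titled tumors 29 members (15.5% of all genes, with 13.1% called higher). No member was called higher in either. These comparisons share the PBS libraries and are the contrast on which the set was chosen, so nothing is read from the counts. Every treated library lay below every PBS library for 35 members, compared with 25.5% of all genes tested, and for 0 members did every treated library lie above every PBS library.

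The hypoxia targets and the glycolytic enzymes had nearly the same median difference but a different spread. In both treated groups against PBS, the median log2 fold change was -0.98 for the 22 hypoxia targets (range -4.14 to 0.48) and -0.96 for the 17 glycolytic enzymes (range -1.80 to -0.04), compared with -0.01 for all genes tested. It was -1.23 for the 7 transport and flux control genes and -0.13 for the 4 genes of the HIF machinery. In P-DXd-titled tumors the medians were -0.96 for hypoxia targets and -0.88 for enzymes, and in T-DXd-titled tumors they were -0.98 and -0.86. The difference between target and enzyme medians, -0.02 for all treated libraries, was smaller than the spread of this difference between replicates of a group (SD 0.33 on the log2 scale), and it became 0.04 without PBS replicate 3. Called lower were 14 of 22 targets, 5 of 7 transport and flux genes, 11 of 17 enzymes and 0 of 4 HIF machinery genes.

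**Figure D1:**
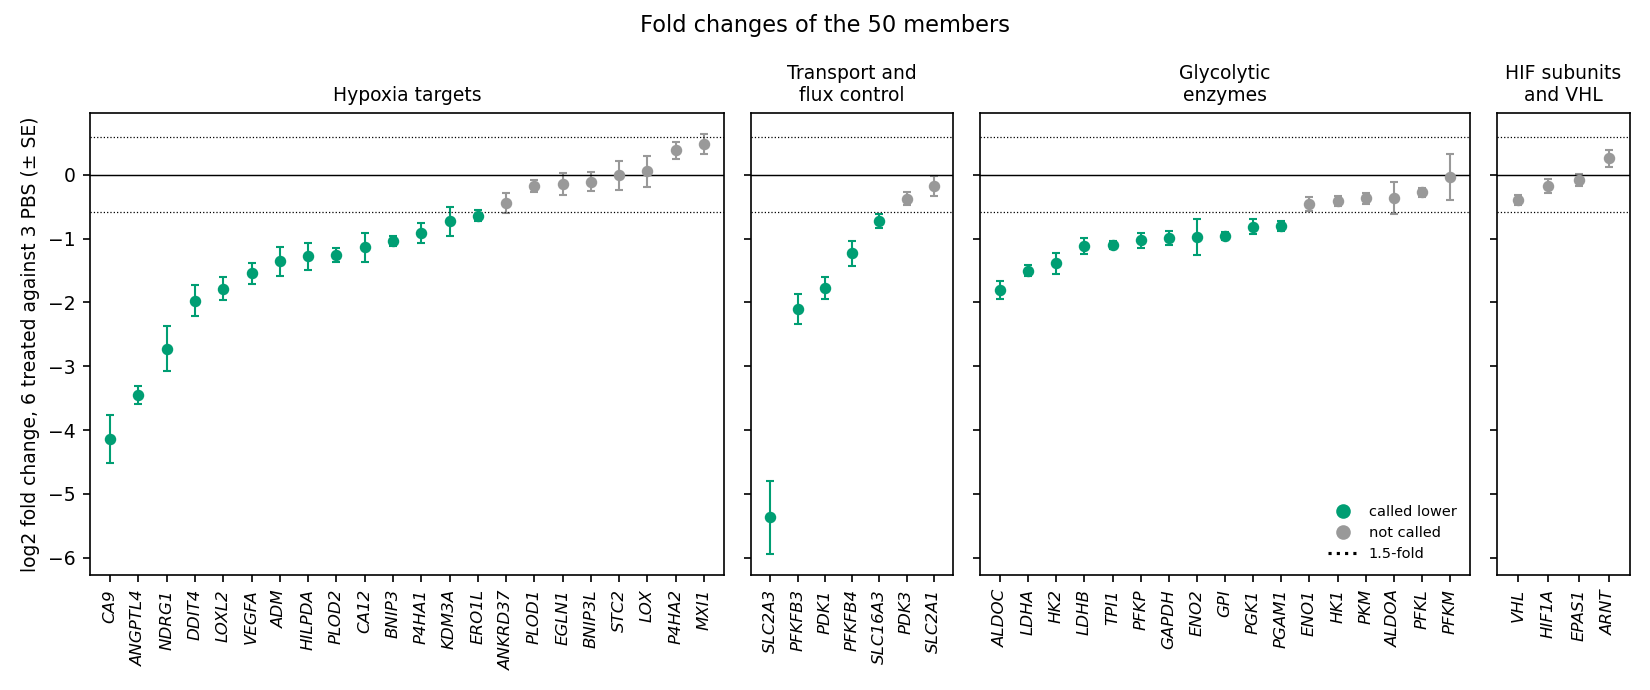
Log2 fold change (vertical axis) of each of the 50 members in the 6 treated against the 3 PBS libraries, by class, with bars for the standard error and dotted lines at a 1.5-fold change. Green points are the 30 members called lower, and grey points were not called. Hypoxia targets reach from -4.14 for CA9 to 0.48 for MXI1, whereas glycolytic enzymes reach from -1.80 to -0.04; the value of SLC2A3, near 0 counts in treated libraries, depends on the prior count.

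Among hypoxia targets, CA9 (listed at chromosome 9, 35673853 to 35681156, on a build the tables do not name), the membrane carbonic anhydrase that acidifies the space around hypoxic cells, showed the largest difference. CA9 was at 10.6, 23.0 and 34.4 CPM in PBS replicates 1 to 3, at 0.798, 0.642 and 1.52 CPM in P-DXd-titled and at 1.36, 1.47 and 1.92 CPM in T-DXd-titled tumors. The highest treated library was thus well below the lowest PBS library, and the log2 fold change was -4.14 ± 0.37 (SE) over all treated libraries, a 17.6-fold lower level. ARHGEF39, which overlaps CA9, was also lower, by a log2 fold change of -1.77, and whether strand was used in counting is not stated. CA12, a second membrane carbonic anhydrase, was at 49.8, 38.7 and 34.2 CPM in PBS, at 18.6, 9.38 and 25.1 CPM in P-DXd-titled and at 19.8, 20.1 and 18.5 CPM in T-DXd-titled tumors. CA12 was highest in PBS replicate 1, the library in which CA9 was lowest among PBS.

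The secreted factors ANGPTL4 and VEGFA were lower in every treated library than in any PBS library. ANGPTL4 (chromosome 19, 8428173 to 8439257), an inhibitor of lipoprotein lipase, was at 19.8, 25.3 and 29.5 CPM in PBS, at 1.91, 2.44 and 2.48 CPM in P-DXd-titled and at 2.59, 1.95 and 2.299 CPM in T-DXd-titled tumors, a log2 fold change of -3.45 ± 0.15. VEGFA (chromosome 6, 43737921 to 43754224) was at 157, 305 and 244 CPM in PBS, at 96.2, 79.0 and 76.5 CPM in P-DXd-titled and at 84.5, 77.6 and 71.7 CPM in T-DXd-titled tumors, a log2 fold change of -1.54 ± 0.16. The treated libraries of VEGFA spanned a narrower range than its PBS libraries. ADM, the vasodilator peptide adrenomedullin, had its highest treated library at 28.4 CPM and its lowest PBS library, replicate 1, at 29.6 CPM.

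NDRG1, a stress-responsive gene induced by hypoxia and by iron depletion, varied most between PBS libraries. NDRG1 was at 506, 2080 and 2497 CPM in PBS, at 226, 212 and 298 CPM in P-DXd-titled and at 268, 247 and 285 CPM in T-DXd-titled tumors. Its log2 fold change was -2.73 ± 0.35, and without PBS replicate 1 it was -3.15 ± 0.11. DDIT4 (REDD1), an inhibitor of mTORC1 signaling, was at 81.3, 182 and 169 CPM in PBS, at 50.6, 29.3 and 30.1 CPM in P-DXd-titled and at 45.3, 33.2 and 31.7 CPM in T-DXd-titled tumors. DDIT4 had a log2 fold change of -1.97 ± 0.24, and PBS replicate 1 was the closest of the PBS libraries to the treated ones, as for NDRG1.

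Genes of collagen maturation, which hypoxia induces, did not move as a block. PLOD2, a lysyl hydroxylase, P4HA1, a subunit of prolyl hydroxylase, and LOXL2, a lysyl oxidase, were called lower, with log2 fold changes of -1.26 ± 0.11, -0.91 ± 0.15 and -1.78 ± 0.18. The related PLOD1, P4HA2 and LOX were not called, and their log2 fold changes were -0.17 ± 0.09, 0.38 ± 0.13 and 0.05 ± 0.24. LOX and P4HA2 overlap other listed genes, as does LOXL2. BNIP3 and BNIP3L, paired inducers of mitophagy, also differed from each other. BNIP3 was at 64.3, 69.8 and 79.6 CPM in PBS, at 32.5, 33.0 and 36.2 CPM in P-DXd-titled and at 36.8, 35.6 and 33.4 CPM in T-DXd-titled tumors. BNIP3L was at 63.3, 101 and 122 CPM in PBS, at 91.7, 90.1 and 86.2 CPM in P-DXd-titled and at 89.8, 89.1 and 84.3 CPM in T-DXd-titled tumors. The treated libraries of BNIP3L lay between PBS replicates 1 and 2.

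EGLN1, the oxygen-dependent hydroxylase that is itself a HIF target, was at 54.0, 93.0 and 111 CPM in PBS, at 82.7, 81.5 and 73.1 CPM in P-DXd-titled and at 78.4, 75.8 and 74.9 CPM in T-DXd-titled tumors. All treated libraries thus fell within the range of the PBS libraries, and the log2 fold change was -0.15 ± 0.17. Of the remaining targets, HILPDA, a lipid droplet protein, KDM3A, a histone demethylase, and ERO1L, the older symbol of the oxidoreductase ERO1A, were called lower, with log2 fold changes of -1.28, -0.73 and -0.64. The calls of KDM3A and of ERO1L were lost without PBS replicate 3, and that of KDM3A also without PBS replicate 2. PBS replicate 1 of KDM3A (48.2 CPM) lay below all treated libraries (52.7 to 64.4 CPM). KDM3A was not called in P-DXd-titled or in T-DXd-titled tumors alone. ANKRD37 (-0.44 ± 0.16), STC2 (-0.01 ± 0.23) and MXI1 (0.48 ± 0.15), an antagonist of MYC, were not called, although MXI1 was called higher (0.64) without PBS replicate 3.

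**Figure D2:**
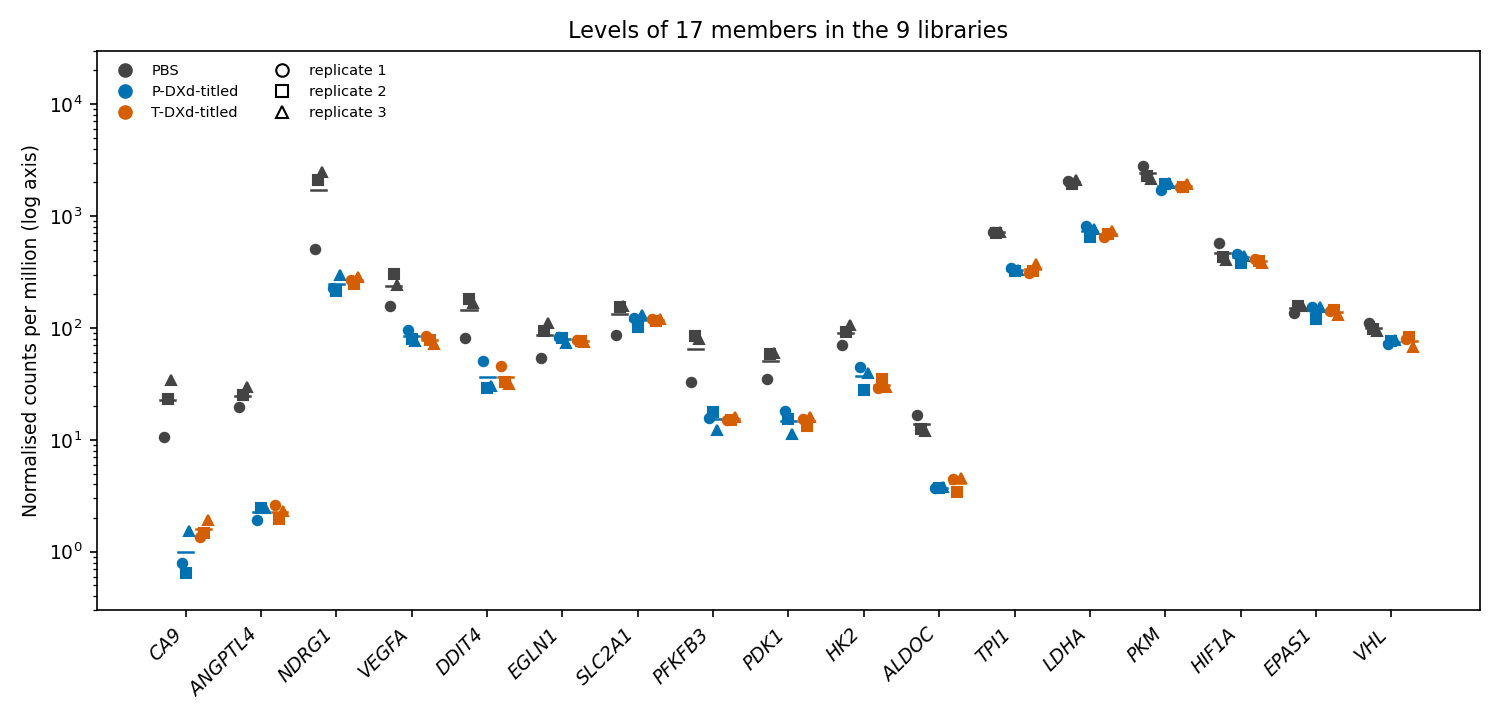
CPM on a log axis for 17 members in the 9 libraries, with colors for groups, symbols for replicates and a line at each group mean. CA9, ANGPTL4, PFKFB3, LDHA and TPI1 show treated libraries below all PBS libraries, whereas EGLN1, SLC2A1, HIF1A and EPAS1 overlap; PBS replicate 1 is the lowest PBS library for most targets but not for LDHA, TPI1 or PKM.

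In glucose and lactate transport, the 2 glucose transporters differed from each other. SLC2A1 (GLUT1), the main glucose transporter of tumor cells, was at 87.2, 155 and 158 CPM in PBS, at 122, 102 and 131 CPM in P-DXd-titled and at 119, 116 and 119 CPM in T-DXd-titled tumors. The treated libraries lay inside the PBS range, with a log2 fold change of -0.17 ± 0.16. SLC2A3 (GLUT3, chromosome 12, 8071826 to 8088871), a high-affinity transporter, had 86, 174 and 99 counts in PBS, 1, 5 and 0 in P-DXd-titled and 2, 1 and 1 in T-DXd-titled libraries. With any library under 3 counts set to that floor, its lowest PBS library was at least 9.6-fold above the highest P-DXd-titled library and at least 19.3-fold above the highest T-DXd-titled library. SLC2A3 was a minor transcript throughout, since SLC2A1 made up 99.0% to 99.5% of the pair per kilobase of transcript even in PBS. SLC16A3 (MCT4), which exports lactate, was at 337, 396 and 420 CPM in PBS, at 229, 191 and 268 CPM in P-DXd-titled and at 216, 237 and 258 CPM in T-DXd-titled tumors, a log2 fold change of -0.72 ± 0.11.

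The regulators of flux were lower in every treated library than in any PBS library. PFKFB3, which makes the activator of phosphofructokinase, was at 32.9, 84.0 and 79.6 CPM in PBS, at 15.7, 17.7 and 12.3 CPM in P-DXd-titled and at 15.1, 14.9 and 16.1 CPM in T-DXd-titled tumors, a log2 fold change of -2.10 ± 0.23. PDK1, a kinase that closes the entry of pyruvate into mitochondria, was at 34.8, 58.2 and 59.5 CPM in PBS, at 18.0, 15.3 and 11.2 CPM in P-DXd-titled and at 15.2, 13.2 and 16.0 CPM in T-DXd-titled tumors, a log2 fold change of -1.78 ± 0.18. For both genes PBS replicate 1 was the lowest of the PBS libraries. PFKFB4, a relative of PFKFB3, was at 36.3, 65.4 and 80.1 CPM in PBS, at 26.3, 21.97 and 30.6 CPM in P-DXd-titled and at 22.3, 28.5 and 25.7 CPM in T-DXd-titled tumors. It had a log2 fold change of -1.23 ± 0.20, and UCN2, which overlaps it, had one of -3.31. PDK3, another kinase of the PDK1 family, was at 19.5, 21.2 and 18.6 CPM in PBS, at 13.9, 13.1 and 15.1 CPM in P-DXd-titled and at 15.6, 16.3 and 17.4 CPM in T-DXd-titled tumors. Its treated libraries were all under its PBS libraries but by less than the fold minimum, with a log2 fold change of -0.37 ± 0.10.

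Along the glycolytic chain, some enzymes were called lower and others were not, in part isozymes of the same step. At the first step HK2, the inducible hexokinase, was at 70.5, 92.6 and 107 CPM in PBS, at 44.6, 28.0 and 39.7 CPM in P-DXd-titled and at 28.9, 35.1 and 29.4 CPM in T-DXd-titled tumors (log2 fold change -1.39 ± 0.16). HK1, the constitutive hexokinase, was at 321, 276 and 297 CPM in PBS, at 223, 203 and 245 CPM in P-DXd-titled and at 219, 232 and 225 CPM in T-DXd-titled tumors (-0.41 ± 0.07). Treated libraries of both were under all PBS libraries, and only HK2 passed the fold minimum. GPI, the isomerase of the next step, was at 212 to 250 CPM in PBS and at 113 to 120 CPM in the treated libraries (-0.96 ± 0.07). Of the phosphofructokinases, PFKP was at 97.7, 144 and 153 CPM in PBS, at 67.4, 61.1 and 64.2 CPM in P-DXd-titled and at 65.0, 67.9 and 61.6 CPM in T-DXd-titled tumors and was called lower (-1.03 ± 0.12). PFKL was at 165, 179 and 193 CPM in PBS, at 141, 139 and 154 CPM in P-DXd-titled and at 152, 143 and 158 CPM in T-DXd-titled tumors and was not called (-0.28 ± 0.07).

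ALDOC (chromosome 17, 26900133 to 26904282), the brain-type aldolase, showed the largest difference among the enzymes. ALDOC was at 16.6, 12.4 and 12.1 CPM in PBS, at 3.69, 3.71 and 3.79 CPM in P-DXd-titled and at 4.48, 3.39 and 4.52 CPM in T-DXd-titled tumors, a log2 fold change of -1.80 ± 0.14. It was a minor aldolase, as ALDOA made up 98.5% to 98.7% of the pair per kilobase in PBS. TPI1, the triose phosphate isomerase, varied little within groups, at 719, 699 and 721 CPM in PBS and 310 to 372 CPM in treated tumors (-1.10 ± 0.07). GAPDH, often used as a reference gene, was at 1390 to 1499 CPM in PBS, at 678, 937 and 693 CPM in P-DXd-titled and at 643, 661 and 696 CPM in T-DXd-titled tumors (-0.99 ± 0.11).

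In the lower part of the pathway PGK1 (-0.81 ± 0.12) and PGAM1 (-0.81 ± 0.08) were called lower, while ENO1, the main enolase, and PKM, pyruvate kinase (-0.37 ± 0.09), were below the fold minimum although every treated library was under every PBS library. ENO1 was at 3180, 2370 and 2328 CPM in PBS, at 1798, 1835 and 1982 CPM in P-DXd-titled and at 1878, 1905 and 2077 CPM in T-DXd-titled tumors (-0.46 ± 0.10). ENO2, the neuronal enolase, was at 15.4, 49.4 and 49.0 CPM in PBS, at 18.1, 15.9 and 19.1 CPM in P-DXd-titled and at 19.5, 20.8 and 22.6 CPM in T-DXd-titled tumors. PBS replicate 1 of ENO2 lay below all treated libraries, and its call (-0.97 ± 0.28) was lost without PBS replicate 2 or replicate 3. LDHA (chromosome 11, 18415935 to 18429972), which makes lactate from pyruvate, was at 2054, 1948 and 2087 CPM in PBS, at 818, 650 and 760 CPM in P-DXd-titled and at 644, 692 and 737 CPM in T-DXd-titled tumors. LDHA replicates were close to each other in every group, and its log2 fold change was -1.502 ± 0.085. LDHB, which favors the reverse reaction, was at 498, 351 and 336 CPM in PBS, at 218, 185 and 170 CPM in P-DXd-titled and at 163, 177 and 182 CPM in T-DXd-titled tumors, a log2 fold change of -1.12 ± 0.13. PBS replicate 1 had the highest LDHB level.

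ALDOA and PFKM, whose products are the muscle forms of aldolase and phosphofructokinase, departed from this pattern in P-DXd-titled replicate 2, the library with muscle transcripts. ALDOA was at 1083, 916 and 939 CPM in PBS, at 605, 1393 and 655 CPM in P-DXd-titled and at 614, 645 and 656 CPM in T-DXd-titled tumors. PFKM was at 82.5, 61.5 and 54.2 CPM in PBS, at 45.8, 143 and 49.7 CPM in P-DXd-titled and at 50.5, 48.1 and 49.0 CPM in T-DXd-titled tumors. All treated libraries other than that one were below all PBS libraries for both genes. ALDOA was not called over all treated libraries (-0.36 ± 0.25) and was called lower without that library (-0.62 ± 0.08), and PFKM changed from -0.04 ± 0.36 to -0.44 ± 0.12 without being called. ENO3, the muscle enolase and not a member, was at 247 CPM in that library and at 5.41 to 12.8 CPM in the other treated libraries. GAPDH was also highest among treated libraries there, at 937 CPM, but stayed below all PBS libraries. In P-DXd-titled tumors GAPDH changed from -0.88 ± 0.15 to -1.04 ± 0.11 without that library.

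The genes of the HIF machinery itself were not called in any comparison. HIF1A (chromosome 14, 62162231 to 62214976) was at 573, 432 and 401 CPM in PBS, at 462, 383 and 440 CPM in P-DXd-titled and at 416, 400 and 382 CPM in T-DXd-titled tumors (-0.18 ± 0.11). EPAS1 was at 135, 158 and 157 CPM in PBS, at 155, 121 and 154 CPM in P-DXd-titled and at 141, 145 and 131 CPM in T-DXd-titled tumors (-0.08 ± 0.09). For both genes the groups overlapped. ARNT was at 34.7, 54.2 and 59.1 CPM in PBS, at 60.7, 58.4 and 59.6 CPM in P-DXd-titled and at 59.1, 55.7 and 59.9 CPM in T-DXd-titled tumors (0.26 ± 0.14). VHL was at 110, 97.3 and 93.0 CPM in PBS, at 71.8, 77.1 and 78.1 CPM in P-DXd-titled and at 78.9, 83.5 and 67.0 CPM in T-DXd-titled tumors. Its treated libraries were all below its PBS libraries, by less than the fold minimum (-0.40 ± 0.08).

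Hypoxia targets and glycolytic enzymes differed in how they varied within the PBS group. PBS replicate 1 was the lowest PBS library for 20 of the 22 hypoxia targets (90.9%), compared with 42.9% of all genes tested, and the highest for CA12 alone. For the glycolytic enzymes it was the lowest for 5 of 17 and the highest for 10 of 17 (58.8%), compared with 45.7% of all genes. Expressed as the median over a class of the log2 level relative to the PBS mean, hypoxia targets were at -0.53 in PBS replicate 1 and at 0.15 and 0.30 in PBS replicates 2 and 3, whereas glycolytic enzymes were at 0.11, -0.07 and -0.03. Transport and flux control genes, at -0.50, 0.23 and 0.27, varied as the targets did. The 5 enzymes lowest in PBS replicate 1 were HK2, PFKL, PFKP, PGK1 and ENO2. In treated libraries the classes were closer together, at -0.72 to -1.10 for targets and -0.80 to -0.89 for enzymes. Marker sums also differed in this library, and host lists did not all go the same way. Fibroblast markers summed to 2061 CPM in PBS replicate 1 and to 1140 and 1057 CPM in PBS replicates 2 and 3. The largest part of these sums was COL1A1, at 1429, 794.8 and 702.1 CPM. FAP, at 10.87, 10.32 and 11.04 CPM, was not highest in PBS replicate 1, unlike the other fibroblast markers. Endothelial markers (5 of 6 listed) summed to 9.73, 5.64 and 4.66 CPM and red cell markers to 0.92, 0.133 and 0.258 CPM. Macrophage markers were lowest in PBS replicate 1, at 4.68, 6.41 and 6.8 CPM, as were muscle markers, at 20.55, 68.21 and 26.77 CPM. Epithelial markers summed to 1667, 2074 and 2345 CPM, of which CDH1 was at 238.3, 244.3 and 248.5 CPM. This is a description of 1 library, without a test, and the part of these cells in the pattern was not tested.

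**Figure D3:**
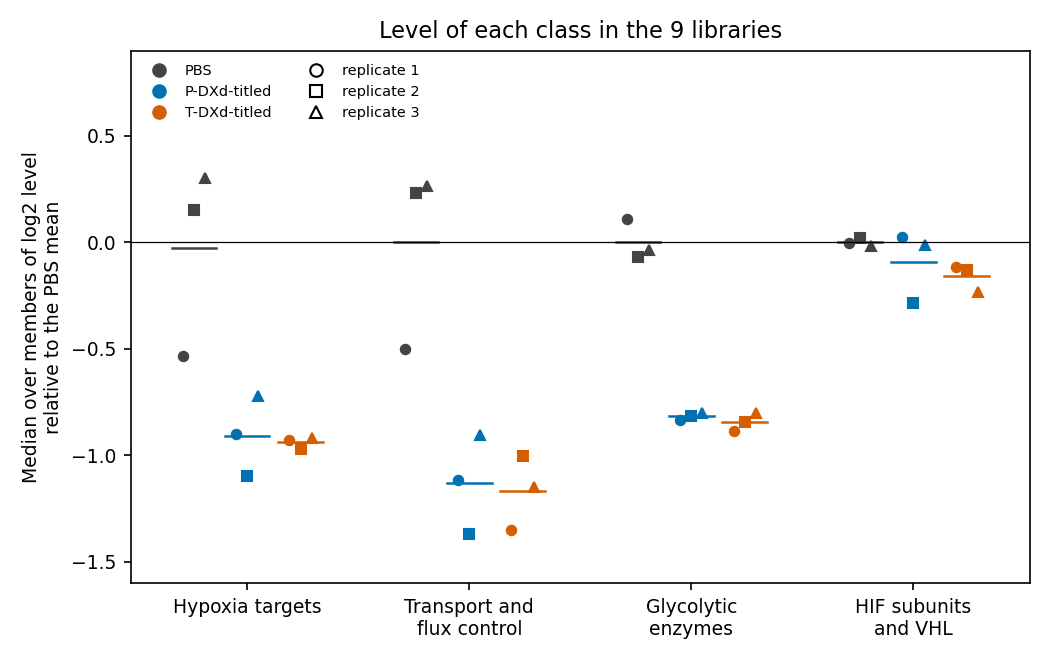
Median over the members of each class of the log2 level relative to the PBS mean (vertical axis) in each library, with colors for groups, symbols for replicates and a line at the group mean. PBS replicate 1 lies at -0.53 for hypoxia targets and -0.50 for transport and flux control but at 0.11 for glycolytic enzymes, while all treated libraries lie at -0.72 or lower in these 3 classes.

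Leaving out PBS replicate 1 moved the class medians apart in all treated libraries against PBS. The median log2 fold change was then -1.06 for hypoxia targets, -1.48 for transport and flux control genes and -0.91 for glycolytic enzymes, with 14, 5 and 11 members called lower as before. The SD of 0.33 cannot judge the distance between the target and enzyme medians here, because it includes PBS replicate 1. The target level minus the enzyme level was -0.64 in that library and 0.22 and 0.34 in PBS replicates 2 and 3. In T-DXd-titled tumors alone, the target and enzyme medians without PBS replicate 1 were -1.06 and -0.98, closer than the -0.98 and -0.86 with that library. In P-DXd-titled tumors alone they were -1.05 and -0.84, a difference of -0.21 compared with -0.09 with that library. KDM3A changed from -0.73 ± 0.22 to -1.04 ± 0.07 and ENO2 from -0.97 ± 0.28 to -1.34 ± 0.10. EGLN1 (-0.38 ± 0.08), BNIP3L (-0.32 ± 0.07) and SLC2A1 (-0.40 ± 0.08) stayed below the fold minimum. Leaving out P-DXd-titled replicate 2 gave medians of -0.94 for targets and -0.92 for enzymes. In P-DXd-titled tumors alone, leaving out that library gave -0.82 for targets and -0.93 for enzymes, so the order of these classes turned.

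Members with related functions were also set against each other, measured here as shares of counts per kilobase of transcript within a paralog set. HK2 made up 16.2% ± 3.4 (SD, n = 3) of the hexokinases HK1 and HK2 in PBS, 9.63% ± 1.64 in P-DXd-titled tumors and 8.12% ± 0.63 in T-DXd-titled tumors. LDHA made up 75.1% ± 4.0 of LDHA and LDHB in PBS, 69.3% ± 2.6 in P-DXd-titled tumors and 69.8% ± 0.4 in T-DXd-titled tumors. The HK2 shares did not overlap between treated and PBS libraries, whereas the LDHA shares did, since PBS replicate 1 was at 70.5% and P-DXd-titled replicate 3 at 72.2%.

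PDK1 made up 24.0% ± 5.3 of PDK1 and PDK3 in PBS, 11.6% ± 2.8 in P-DXd-titled tumors and 10.1% ± 0.8 in T-DXd-titled tumors. The size of this share depends on the canonical transcript lengths, 14.07 kb for PDK1 and 1.741 kb for PDK3. In CPM, not divided by length, PDK1 was the higher of the pair in PBS, with means of 50.8 and 19.7. PFKP made up 30.8% to 40.9% of the phosphofructokinases in PBS and 19.8% to 28.8% in treated libraries, and the share of PFKL was 45.2% to 47.1% in PBS and 54.2% to 58.0% in the treated libraries other than P-DXd-titled replicate 2, which was at 40.8%. For PDK1 and PFKP, as for HK2, every treated library had a smaller share than any PBS library. BNIP3L made up 36.8% ± 5.5 of BNIP3 and BNIP3L in PBS, 54.1% ± 2.2 in P-DXd-titled tumors and 52.7% ± 0.4 in T-DXd-titled tumors. CA12 made up 54.3%, 29.9% and 20.1% of CA9 and CA12 in PBS replicates 1 to 3 and 70.9% to 85.5% in treated libraries. These shares use the same fold changes on which the set was chosen and were not tested.

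**Figure D4:**
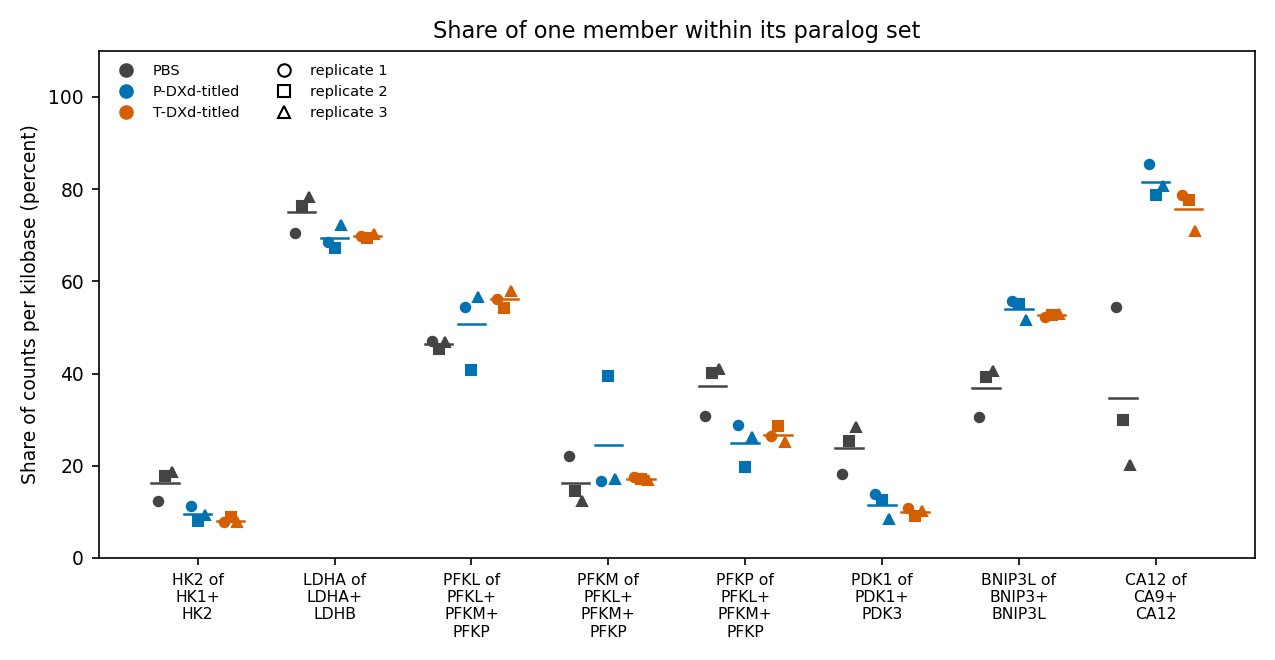
Share of counts per kilobase (percent, vertical axis) of a member within its paralog set in each library, with colors for groups, symbols for replicates and a line at the group mean. HK2, PFKP and PDK1 take smaller shares in every treated library than in any PBS library and BNIP3L and CA12 larger ones; PFKM is at 39.4% in P-DXd-titled replicate 2 and at 16.6% to 17.5% in the other treated libraries.

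Between the conjugates, no member was called different. Of the 49 members tested in P-DXd-titled against T-DXd-titled tumors, 0 were called by edgeR and 0 by DESeq2, where edgeR called 0.0273% of the 14653 genes tested. Unadjusted values in the edgeR fit were below 0.05 for 4 members, LOX, ENO2, PDK3 and LOXL2. Every member had an edgeR adjusted p of 1.0. The log2 differences of the 49 members ranged from -0.68 to 0.69, and 47 were smaller than 0.5 in size. For 45 members the difference with 2 standard errors on either side lay within a 1.5-fold change. CA9 (-0.68 ± 0.35), CA12 (-0.14 ± 0.26), PFKM (0.69 ± 0.35) and ALDOA (0.47 ± 0.26) were the exceptions, so for them a 1.5-fold difference was not excluded. The values of ALDOA and PFKM rest on P-DXd-titled replicate 2. SLC2A3 had too few counts in treated libraries to be tested.

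Other genes of these pathways were listed by function. Of 39 other hypoxia-induced genes tested in all treated libraries against PBS, 13 were called lower and 8 higher, with a median log2 fold change of -0.36, where 17.1% of all genes tested were called lower and 15.2% higher. STC1, a secreted glycoprotein, was at 12.04, 46.1 and 55.6 CPM in PBS and at 1.43 to 4.12 CPM in treated tumors (-3.59 ± 0.40). PPP1R3C, a glycogen-targeting subunit, was called lower from a low level (-2.10 ± 0.71), and its PBS values of 1.23, 0.250 and 0.169 CPM overlapped those of treated libraries. Of 12 other oxygen sensing and HIF regulators, 1 was called lower and 0 higher. That gene was EGLN2 (PHD1), at 2.64 to 3.54 CPM in PBS and 1.401 to 2.11 CPM in treated tumors (-0.80 ± 0.20).

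Of 30 other genes of glycolysis, pyruvate entry and lactate transport, 3 were called lower and 7 higher, with a median log2 fold change of 0.25 (all genes -0.01). Over all genes tested, 17.1% were called lower and 15.2% higher, and the counts of this list were not tested against these shares. FBP1, which opposes glycolysis as an enzyme of gluconeogenesis, was at 10.6, 14.2 and 15.2 CPM in PBS and at 28.9 to 32.8 CPM in treated tumors (1.23 ± 0.12). PDK4, a kinase of the same family as PDK1, was at 0.931, 7.20 and 7.54 CPM in PBS and at 14.2 to 21.0 CPM in treated tumors (1.73 ± 0.49), and HK3, a hexokinase of blood cells, was below 0.6 CPM in every library (1.82 ± 0.39). PDK1 and PDK4 thus differed in direction within a family. Of 7 genes of the pentose phosphate pathway, 1 was called lower, TKT, encoding transketolase (-0.65 ± 0.11), and 0 were called higher. These genes were also listed with earlier results known, and no list was tested as a set.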

How the data were processed

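RNA-Seq had been performed on 9 PC3 xenografts, 3 each of PBS, P-DXd-titled and T-DXd-titled mice. The authors removed adapters with Cutadapt, mapped the reads with STAR, summed them over genes with featureCounts and deposited these raw counts in 2 tables (16098 and 16114 genes, 16008 shared, with identical PBS counts), in which a count of 5 or more was reached in at least 2 libraries for each gene. Whether mouse reads were removed or strand was used is not stated. The methods name GRCh38, but listed coordinates belong to a build the tables do not name. No per-sample column was left unused (0).

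Counts were fitted with edgeR 4.0.16 in R 4.3.3 over all genes (TMM, filterByExpr, two-sided quasi-likelihood F test, Benjamini-Hochberg adjustment). Each group comparison used its 6 libraries, and both conjugates against PBS used all 9. Calls required an adjusted p of at most 0.05 and a minimum fold change of 1.5. Both limits follow the study, which applied them with DESeq2. Class levels added a prior of 0.5 to CPM, floors were 3 counts, and values per kilobase used canonical transcript lengths. Standard errors were derived from the fit, as the size of the log2 fold change divided by the square root of its F statistic. P-values measure only the spread between these libraries. Totals of 54481702 to 125538606 counts set the precision. No replicate pair agreed within sampling noise (chi-square per gene 17.8 to 396).

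The members, classes, lists and tests were chosen with earlier results of these data known. Values per library were given for CA9, VEGFA, HIF1A, EPAS1, VHL, EGLN1, the 4 members of each class with the largest change at a mean of at least 100 counts, and the paralog sets. For other pathway lists, up to 3 called genes with the largest change were named. A gene and a marker list that this rule or the marker lists would include are not reported here. Other genes were named after their values were seen. Endothelial markers (5 of 6 listed) summed to 4.66 to 9.73 CPM in PBS and 6.22 to 10.9 CPM in treated libraries, and red cell markers (2 of 5 listed) to at most 1.23 CPM. Alternatives were RLE factors, total counts, the Wald test of DESeq2 1.42.0, no filter, a minimum of 10 counts per library, no fold minimum, all 9 libraries in 1 fit, a block on the digit of the animal code, and leaving out each library.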

Additional observations from a re-analysis of the deposited data

How the results depend on the processing

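Over every alternative, the number of members called, in either direction, stayed within 1.5 times its reported value, at 22 to 32 in P-DXd-titled (28 reported), 25 to 33 in T-DXd-titled (29) and 28 to 39 in all treated libraries against PBS (30), with 0 between the conjugates. Of these calls, 21, 24 and 27 were kept under every alternative. ADM, PFKFB4, HILPDA and P4HA1 were among those lost on leaving out a library, and KDM3A and ENO2 were called in each conjugate group without PBS replicate 1. MXI1 was called higher in T-DXd-titled and in all treated libraries without PBS replicate 3. SLC2A3 could not be tested at a minimum of 10 counts per library. The difference of the target and enzyme medians was not stable in sign. Leaving out 1 library gave -0.26 to 0.11 in P-DXd-titled (-0.09 reported), -0.15 to 0.062 in T-DXd-titled (-0.12 reported) and -0.16 to 0.036 in all treated libraries, and the positive values came without PBS replicate 3 or without P-DXd-titled replicate 2. Members near 0 also changed sign, though not always without the same libraries. HIF1A in P-DXd-titled (0.049) and PFKM in all treated libraries (0.16) reached these positive values without PBS replicate 1. BNIP3L ranged from -0.31 to 0.13, -0.34 to 0.10 and -0.32 to 0.11 in the P-DXd-titled, T-DXd-titled and all-treated comparisons, and EGLN1 from -0.36 to 0.11, -0.42 to 0.0575 and -0.38 to 0.082. In P-DXd-titled against PBS, PFKM ranged from -0.45 to 0.55, ALDOA from -0.62 to 0.070, HIF1A from -0.23 to 0.049 and EPAS1 from -0.12 to 0.065. PFKM ranged from -0.44 to 0.16 in all treated libraries and was 0.030 with a block on the digit of the animal code, whose meaning the labels do not give. That block left the counts at 28, 29 and 30. No paired analysis was possible because the labels give no replicate numbers. The causes were not tested. Depth limits only SLC2A3, PPP1R3C and HK3, which had few counts.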
